A study of Mus musculus with 53 samples.

Results

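Proximal colon from antibiotic-treated BA mice was compared with proximal colon from untreated WT mice at day 30 after induction. The comparison used 5 antibiotic-treated BA libraries and 4 WT libraries, 9 of the 53 libraries of the series, and the members were taken from the labels alone. BA mice carried VilCreER with Braf V600E/+ and Alk5 fl/fl, in which the oncogenic BRAF allele is switched on and Alk5, the type I receptor for TGF-β encoded by Tgfbr1, is deleted. WT mice carried VilCreER without either allele, so the Cre transgene was shared by both groups. The Villin promoter drives the tamoxifen-inducible Cre in gut epithelium, and stromal, immune and muscle cells of the same tissue pieces were not targeted. All mice were of a mixed C57BL/6J N6 background. The treated BA mice drank vancomycin at 500 mg/L together with ampicillin, metronidazole and neomycin trisulphate at 1 g/L each, starting on the first day after tamoxifen. Untreated BA colon of the same genotype and day (5 libraries) served for comparison. No antibiotic-treated WT library was among the samples, so genotype and antibiotics differed together between treated BA and WT colon and their parts in any difference cannot be told apart. Comparisons of both BA groups with WT shared the same 4 WT libraries, and their values are given side by side. The labels do not tie libraries to animals, while the study's reporting statement describes its replicates as independent animals, and p-values measure the spread between these libraries.

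BRAF is a kinase that activates MEK and ERK, and ERK in turn induces transcription factors together with its own inhibitors, among them the DUSP phosphatases and the Sprouty proteins. TGF-β signals through its receptors to SMAD proteins and restrains growth of intestinal epithelium. Injured or transformed colonic epithelium can take up a foetal-like state marked by Ly6a (Sca-1) and annexins, while mature colonocytes carry ion transporters, detoxifying enzymes and genes of defence against luminal bacteria. Several of these defence and interferon-induced genes respond to the microbiota in healthy gut.

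The antibiotic-treated BA libraries held 16304817 to 18073727 reads counted on genes, against 18411237 to 21249146 in WT and 13266218 to 18603673 in untreated BA. A count of 3, the limit below which a gene could not be told from absent, was 0.174 CPM (counts scaled to a common library size) at the median depth of treated BA and 0.16 CPM at that of WT. All levels below are CPM normalised by the TMM method, listed in the order of the replicate numbers, and all changes are log2 fold changes from edgeR's quasi-likelihood test with Benjamini-Hochberg adjusted p-values over every gene tested, called at an adjusted p under 0.05. Tgfbr1 was at 64.1, 33.9, 45.2 and 56.4 CPM in WT and at 57.5, 46.1, 57.8, 49.2 and 53.4 CPM in treated BA, and Braf was at 28.9 to 40.7 CPM in WT and 31.4 to 36.5 CPM in treated BA. Whole-gene counts overlapped for both genes (adjusted p = 0.648 and 0.331) and could show neither the recombined Alk5 allele nor the V600E base, so the genotypes rest on the labels. The tissue label fitted its markers: Car1, the carbonic anhydrase of colonocytes, was at 19062 to 25194 CPM in WT and 14915 to 22473 CPM in treated BA, while Lct, a small intestinal enzyme, stayed at or under 0.448 CPM.

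Treated BA replicate 3 stood apart from the other libraries of its group. Its summed level over 10 fat cell genes, a list added after library values were seen, was 6231 CPM against 126 to 165 CPM in the other treated BA libraries and 220 to 623 CPM in WT. Matrix and fibroblast genes summed to 11886 CPM there against 2290 to 3303 CPM, and macrophage genes to 754 CPM against 256 to 323 CPM. Smooth muscle genes were low in treated BA replicate 1, at 2348 CPM against 4691 to 7650 CPM in the other treated BA libraries. WT replicate 4 held some fat RNA (Adipoq 16.3 CPM), and WT replicate 1 was far above its group for Reg3b and Reg3g. Lists that touch these tissues are given with and without treated BA replicate 3. In whole tissue, fewer cells of a type and less RNA per cell cannot be told apart.

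Of 17569 genes tested between treated BA and WT colon, 6966 (39.6%) were called, 3833 higher (21.8%) and 3133 lower (17.8%). By over 2-fold, 841 genes were higher (4.79%) and 1112 were lower (6.33%), and every treated library was above every WT library in 16.7% of genes and below in 15.9%. The 95% confidence interval of the change lay wholly within 1.5-fold of WT for 6552 genes (37.3%), which is the criterion used below for a gene at WT level. Such a gene can also be called, because a narrow interval inside this bound may still exclude no change, so the called genes and these genes overlap. Without treated BA replicate 3, 8274 of 17427 genes were called (47.5%), 4015 higher (23%) and 4259 lower (24.4%), and 37.2% lay within 1.5-fold. Untreated BA colon differed from WT in 9634 of 17471 genes (55.1%), 4516 higher (25.8%) and 5118 lower (29.3%). Between treated and untreated BA, 2172 of 16680 genes were called (13%), 755 higher (4.53%) and 1417 lower (8.5%) under antibiotics, and 1300 were called without treated BA replicate 5. Treated libraries were all above the untreated ones in 3.34% of these genes and all below in 7.58%.

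The promoters below belong to genes described later, 4 interferon-induced genes that were lower in treated BA colon than in WT and 1 cholesterol synthesis gene that was higher. Each is the 250 bases before the start of transcription, 5′ to 3′ on the gene's strand, from RefSeq on GRCm38.p6, at chr12:26456453-26456702 (Rsad2, minus strand), chr19:34640639-34640888 (Ifit1, plus), chr5:120907526-120907775 (Oas1a, minus), chr11:48871421-48871670 (Irgm1, minus) and chr13:119690101-119690350 (Hmgcs1, plus). Capitals mark the letters GAAANNGAAA, a short form of the interferon response element, or TCACNCCAC, a sterol response motif, on either strand.
Rsad2: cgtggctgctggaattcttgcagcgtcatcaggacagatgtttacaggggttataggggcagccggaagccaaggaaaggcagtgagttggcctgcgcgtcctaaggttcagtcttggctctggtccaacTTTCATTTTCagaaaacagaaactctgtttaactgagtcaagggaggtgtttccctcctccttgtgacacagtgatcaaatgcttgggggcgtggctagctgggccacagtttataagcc
Ifit1: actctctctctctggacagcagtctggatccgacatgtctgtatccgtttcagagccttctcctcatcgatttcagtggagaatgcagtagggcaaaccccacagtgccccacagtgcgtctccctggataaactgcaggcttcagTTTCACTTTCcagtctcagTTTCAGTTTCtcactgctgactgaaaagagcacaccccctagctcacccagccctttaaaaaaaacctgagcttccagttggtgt
Oas1a: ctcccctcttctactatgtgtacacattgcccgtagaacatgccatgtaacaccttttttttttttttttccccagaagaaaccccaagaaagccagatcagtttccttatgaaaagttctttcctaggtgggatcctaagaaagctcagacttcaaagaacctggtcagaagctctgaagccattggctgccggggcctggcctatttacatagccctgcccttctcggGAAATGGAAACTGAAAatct
Irgm1: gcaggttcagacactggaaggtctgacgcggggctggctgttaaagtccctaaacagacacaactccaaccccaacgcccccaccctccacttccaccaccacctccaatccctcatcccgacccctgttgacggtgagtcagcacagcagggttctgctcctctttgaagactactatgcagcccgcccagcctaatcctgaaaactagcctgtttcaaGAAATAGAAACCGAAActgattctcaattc
Hmgcs1: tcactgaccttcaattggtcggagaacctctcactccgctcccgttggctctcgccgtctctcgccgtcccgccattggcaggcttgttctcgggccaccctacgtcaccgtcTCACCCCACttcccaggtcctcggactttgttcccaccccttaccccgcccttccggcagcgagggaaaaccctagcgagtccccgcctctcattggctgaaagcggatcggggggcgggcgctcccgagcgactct
The interferon motif began 120 bases before the start of Rsad2, 104 and 85 bases before that of Ifit1, and as a pair of overlapping copies 20 and 14 bases before Oas1a and 30 and 24 bases before Irgm1. It was found in 11 of the 16 interferon list members with a promoter entry (68.8%), against 936 of 27025 promoters of all genes (3.46%). The sterol motif began 137 bases before the start of Hmgcs1 and was in 1 of 12 cholesterol synthesis promoters (8.33%), against 331 of all (1.22%). The AP-1 letters TGANTCA were in none of 5 foetal-list and none of 10 ERK-list promoters, against 2113 of all (7.82%). A match describes letters in this window and is not a measured site.

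Several genes almost silent in WT were among those that rose most in treated BA colon, in a ranking of genes with non-overlapping groups and an average log2 CPM of at least 3. Ly6g, of the Ly6 family of cell surface proteins, was at 0.255, 0.0511, 0.276 and 0.31 CPM in WT and at 328, 351, 274, 353 and 317 CPM in treated BA, a change of 10.47 (SE 0.22, adjusted p = 3.45e-09). Il5ra, a subunit of the IL-5 receptor, was at 0.102 to 0.367 CPM in WT and 42.8 to 64.1 CPM in treated BA (7.80, adjusted p = 2.74e-08). Nt5c1a, a cytosolic nucleotidase, rose by 7.42, and Syt8, a synaptotagmin, by 7.06. Groups that do not overlap were a condition of this ranking and are no further result. Other marker genes of neutrophils did not accompany Ly6g: of 14 neutrophil genes 3 passed the filter on low counts and only Ly6g was called (2 genes were called without treated BA replicate 3), while S100a8 and S100a9 were at or under 0.562 CPM in every WT and treated BA library other than treated BA replicate 3 (7.09 and 11 CPM). Of the 8 mast cell and eosinophil genes tested, Il5ra was higher and Kit lower (fell by 1.09) (list median -0.48), beside 21.8% and 17.8% of all genes.

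Il1rn, the secreted antagonist of the IL-1 receptor, was at 14.9, 3.47, 2.43 and 6.61 CPM in WT and at 476, 628, 499, 506 and 554 CPM in treated BA, 6.30 higher (SE 0.50, adjusted p = 8.37e-06). Prss22, a secreted serine protease, rose by 7.22 (23.6 to 36.4 CPM against 0.103 to 0.306 CPM in WT). Arhgap40, a putative GTPase-activating protein, had no read in any WT library and 6.85 to 9.79 CPM in treated BA. Ly6g, Prss22 and Arhgap40 had been singled out in BA colon on libraries of this series, so their direction is no independent evidence. Further genes at the top of the list were Fer1l4 (6.21), Trim29, an epithelial TRIM protein (5.87), and Rnase1, a secreted ribonuclease (7.29). Rnase1 was also higher than in untreated BA, by 2.85 (adjusted p = 0.00257). Gm13394, a Gapdh-like gene model, rose by 7.61 (71.2 to 184 against 0.413 to 0.766 CPM), but counting may divide reads between it and Gapdh, so its level is uncertain.

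In the same ranking, several transporters and enzymes were among the genes that fell most. Slc30a10, a manganese exporter, was at 180, 155, 245 and 223 CPM in WT and at 1.18, 1.54, 1.26, 1.01 and 0.493 CPM in treated BA (fell by 7.49, SE 0.24, adjusted p = 3.12e-08), and the overlapping gene Gm2061 fell by 6.05 with a strand setting for counting that is not given. Slc37a2, a sugar-phosphate exchanger, was at 673 to 2551 CPM in WT and 10.4 to 27.9 CPM in treated BA (fell by 6.58), and was lower still in untreated BA (3.09 to 5.3 CPM). S100g, the calcium-binding protein calbindin-D9k, was at 13.8, 47.5, 34.9 and 28 CPM in WT and at or under 0.201 CPM in treated BA, near the limit of a count of 3. Others at the bottom were Arg2, the mitochondrial arginase (fell by 4.68), Dio1, a deiodinase that activates thyroid hormone (fell by 4.66), Ugt8a (fell by 6.13), the carboxylesterases Ces2a (fell by 4.89) and Ces2b (fell by 4.65), and, neither a transporter nor an enzyme, the MHC class I-like H2-Q1 (fell by 6.75). Slc30a10, H2-Q1, Ces2a, Arg2 and Dio1 were also lower than in untreated BA, with log2 changes between -1.27 and -3.21. H2-Q1, the Ces genes, the Ly6 genes, Saa1 and Saa2, the Cyp2c, Ugt2b, Gsta and Oas families and the Gbp genes have near-identical relatives between which counting may divide reads, and single members are uncertain to that extent.

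Foetal-like genes remained high in treated BA colon. The study had reported foetal markers, Ly6a and Anxa1 among them, as raised in BA colon, in part on libraries of this series. Their direction is therefore no independent evidence. Of 11 genes, 10 were tested, 8 were higher than in WT and none was lower, beside 21.8% higher and 17.8% lower of all genes tested, and with a median change of 2.28 against 0.01. In untreated BA 9 were higher and 1 lower (median 3.12), beside 25.8% and 29.3% of all genes. Between the BA groups 6 of 10 were lower and 2 higher under antibiotics (median -0.36), beside 8.5% and 4.53% of all genes. Ly6a, which encodes the stem cell antigen Sca-1, was at 60.4, 47.3, 43.5 and 49.2 CPM in WT, at 259, 282, 244, 392 and 281 CPM in treated BA and at 466 to 579 CPM in untreated BA. Each treated BA library was above every WT library and below every untreated one, so Ly6a was 2.56 (SE 0.15, adjusted p = 1.31e-06) above WT and 0.83 below untreated BA (log2 change of -0.83, adjusted p = 0.00155). Ly6d and Ly6c1 had the same order: Ly6d was at 1.17 to 2.81 CPM in WT, 13 to 20.2 CPM in treated BA and 37.2 to 57.2 CPM in untreated BA, with changes of 3.08 from WT and -1.63 from untreated BA (adjusted p = 0.000148). Krt7, a simple-epithelium keratin, was 1.62 above WT and lower than in untreated BA (-0.88, adjusted p = 0.00426), and Anxa5 was 1.74 above WT and lower than in untreated BA (-0.34, adjusted p = 0.0165).

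Annexins, calcium-dependent membrane-binding proteins, split within this list. Anxa8 was at 1.79, 2.5, 1.24 and 3.25 CPM in WT, at 173, 192, 112, 136 and 154 CPM in treated BA and at 17.3 to 47.6 CPM in untreated BA. Its level in every treated library was above that in every untreated BA library, 6.14 (SE 0.27, adjusted p = 1.59e-07) above WT and 2.41 (SE 0.27, adjusted p = 0.000484) above untreated BA. Anxa1 was at 42.8 to 55.5 CPM in WT, 566 to 828 CPM in treated BA and 459 to 635 CPM in untreated BA, 3.94 above WT and 0.41 above untreated BA (adjusted p = 0.0347). Anxa3 rose by 3.74 over WT and had a change of -0.07 from untreated BA (adjusted p = 0.53). Anxa6 was not called (-0.30, adjusted p = 0.347) with all libraries and fell by 0.55 (adjusted p = 0.0173) without treated BA replicate 3, which had 98.1 CPM. Ly6e, at -0.05, lay within 1.5-fold of WT.

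**Figure D1:**
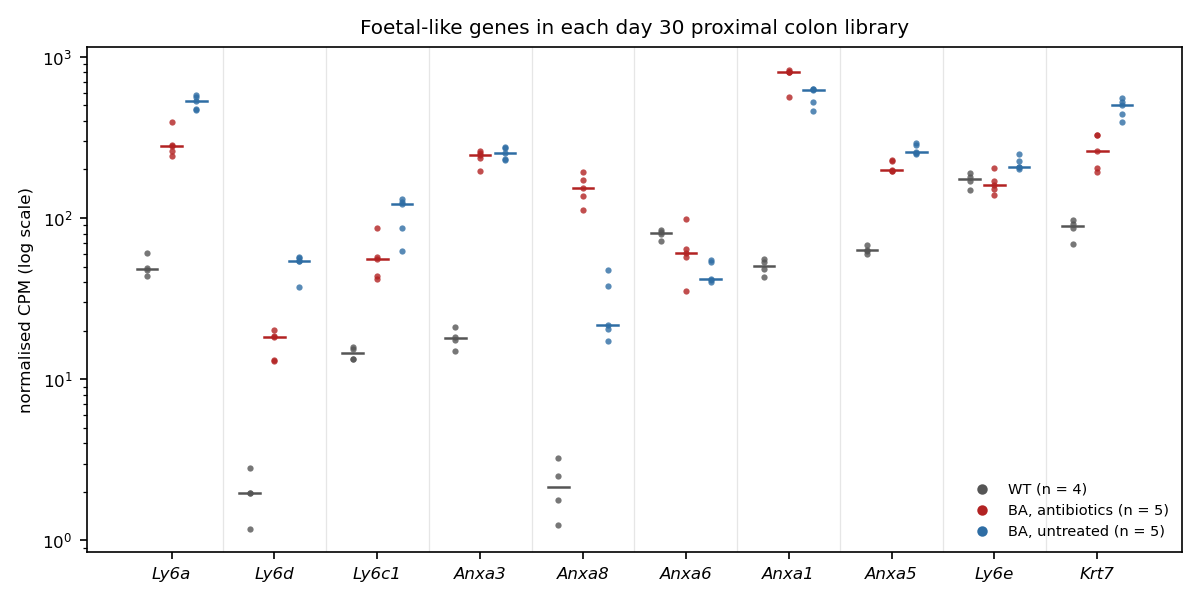
Foetal-like genes by library, in normalised CPM on a log axis, for WT (4 libraries), antibiotic-treated BA (5) and untreated BA (5) colon, with 1 point per library and bars at group medians. Ly6a and Ly6d lie between WT and untreated BA under antibiotics, while Anxa8 is highest in the 5 treated libraries (112 to 192 CPM).

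ERK output also remained high. Of 18 genes induced by ERK, 14 were higher than in WT and none was lower in treated BA (median 0.99), beside 21.8% and 17.8% of all genes. In untreated BA 15 were higher and none was lower (median 1.17), beside 25.8% and 29.3%. Dusp4, a nuclear phosphatase of ERK, was at 2.4, 3.37, 3.22 and 2.48 CPM in WT and at 54.3, 46.4, 28.2, 49.2 and 40.2 CPM in treated BA, 3.93 higher (SE 0.20, adjusted p = 4.12e-07), with no overlap between the groups. Dusp6, the phosphatase that dephosphorylates ERK in the cytoplasm, was at 84 to 143 CPM in treated BA, each library above the highest of WT (46.3 CPM), a rise of 1.56 (adjusted p = 6e-05). Untreated BA was higher still for Dusp6 (128 to 239 CPM), with a change of -0.72 between the BA groups (adjusted p = 0.0173). Etv4, an ETS transcription factor, rose by 3.20 and Epha2, an ephrin receptor, by 2.82, and neither was called between the BA groups (adjusted p = 0.165 and 0.947).

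Among the remaining ERK genes, Phlda1 rose by 1.93, Fosl1, an AP-1 subunit, by 1.92, Ier3 by 1.75 and Dusp5 by 1.59. The Sprouty proteins, which inhibit signalling upstream of ERK, rose by less: Spry2 by 1.01, Spry1 by 0.96 and Spry4 by 0.92, with Spred1 at 0.92. Egr1 was 0.98 higher with overlapping libraries (19.2 to 32.9 against 28 to 63.6 CPM). Myc, the growth-promoting transcription factor, was 0.47 above WT (adjusted p = 0.00116) and 0.84 above WT in untreated BA, and lower in treated than in untreated BA (-0.38, adjusted p = 0.0341). Ccnd1, Etv5 and Spred2 had changes of -0.16, 0.09 and -0.02 with intervals within 1.5-fold of WT, and Epha4 was not called (0.26, adjusted p = 0.364).

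EGF family genes acting on the same pathway were mostly higher. Of 10 tested, 6 were higher and 1 lower (median 0.65), beside 21.8% and 17.8% of all genes. In untreated BA 8 were higher and 1 lower, beside 25.8% and 29.3%. The ligands Hbegf and Btc rose by 1.92 and 1.80, the receptors Egfr, Erbb3 and Erbb2 by 1.52, 0.74 and 0.38, and Errfi1, an inhibitor of EGFR, by 1.22. Egfr was at 34 to 47 CPM in WT and 84.2 to 147 CPM in treated BA, with no overlap. Egf was lower (fell by 1.64), and Tgfa was within 1.5-fold of WT (0.20). Ereg, the ligand epiregulin, had a change of -0.14 from WT and was lower than in untreated BA (-0.95, adjusted p = 0.00963), where it was 0.80 above WT.

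Genes of simple epithelium and of cell junctions were higher. Of 10 keratins tested, 8 were higher and none was lower (median 1.31), beside 21.8% and 17.8% of all genes. In untreated BA 8 were higher and none was lower (median 1.41), beside 25.8% and 29.3%. Of 10 general epithelial genes, 9 were higher (median 0.81). Krt18 was at 182, 276, 240 and 208 CPM in WT and at 1283, 1480, 964, 1367 and 1322 CPM in treated BA, 2.51 higher (SE 0.15, adjusted p = 1.31e-06), and its partner Krt8 rose by 1.33. Krt19 and Krt20, the latter a keratin of surface colonocytes, rose by 1.27 and 1.28. Krt23 was not called against WT (0.52, adjusted p = 0.144), was 1.94 above WT in untreated BA, and differed between the BA groups (-1.43, adjusted p = 0.0085). The summed level of the general epithelial genes was 20351 to 30990 CPM in treated BA, 24825 to 27992 CPM in untreated BA and 12941 to 15122 CPM in WT. Epcam, the epithelial adhesion molecule, rose by 0.78 and Cdh1 (E-cadherin) by 0.54, and the part of a larger epithelial share of the RNA in single epithelial genes below was not tested.

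Of 14 tight junction genes, 9 were higher and 2 lower (median 0.64), beside 21.8% and 17.8% of all genes. The scaffold Tjp1 rose by 1.07, Ocln by 0.82 and Cldn4 by 1.38, the last with overlapping libraries (76.6 to 251 against 248 to 537 CPM). Cldn8, a sealing claudin of distal colon, fell by 3.64, from 8.89 to 25.8 CPM in WT to 0.63 to 2.12 CPM in treated BA. Cldn2, a pore-forming claudin of crypts, was within 1.5-fold of WT (-0.16).

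Cholesterol synthesis genes rose in treated BA colon. Of 19 genes, 17 were higher and 1 lower than in WT (median 1.14), beside 21.8% and 17.8% of all genes. In untreated BA 15 were higher and none was lower (median 0.67), beside 25.8% and 29.3%. Between the BA groups, 9 were higher under antibiotics and 1 lower, beside 4.53% and 8.5% of all genes, and without treated BA replicate 3, 12 were higher and 1 lower, beside 6.09% and 9.84%. Hmgcs1, the cytosolic HMG-CoA synthase whose promoter is printed above, was at 237, 170, 178 and 195 CPM in WT, at 669, 533, 402, 682 and 491 CPM in treated BA and at 308 to 400 CPM in untreated BA. Every treated library was above every untreated one, 1.52 over WT (SE 0.16, adjusted p = 4.61e-05) and 0.65 over untreated BA (adjusted p = 0.00982).

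Downstream enzymes had the same direction. Pmvk, phosphomevalonate kinase, was at 26.5 to 34.1 CPM in WT, 42.2 to 61.8 CPM in treated BA and 27.7 to 33.1 CPM in untreated BA, and it was called against both (0.78 and 0.74, adjusted p = 0.000651 and 0.00125). Lss, lanosterol synthase, rose by 1.21 over WT and by 0.76 over untreated BA (adjusted p = 0.00407). Sqle, squalene epoxidase, rose by 1.33 over WT. Dhcr7, which makes cholesterol in the last step of a branch of the pathway, went the other way: it was at 95.3 to 110 CPM in WT, 50.3 to 73.4 CPM in treated BA and 102 to 119 CPM in untreated BA, a change of -0.74 from WT (adjusted p = 0.000308) and -0.86 from untreated BA (adjusted p = 0.000392).

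**Figure D2:**
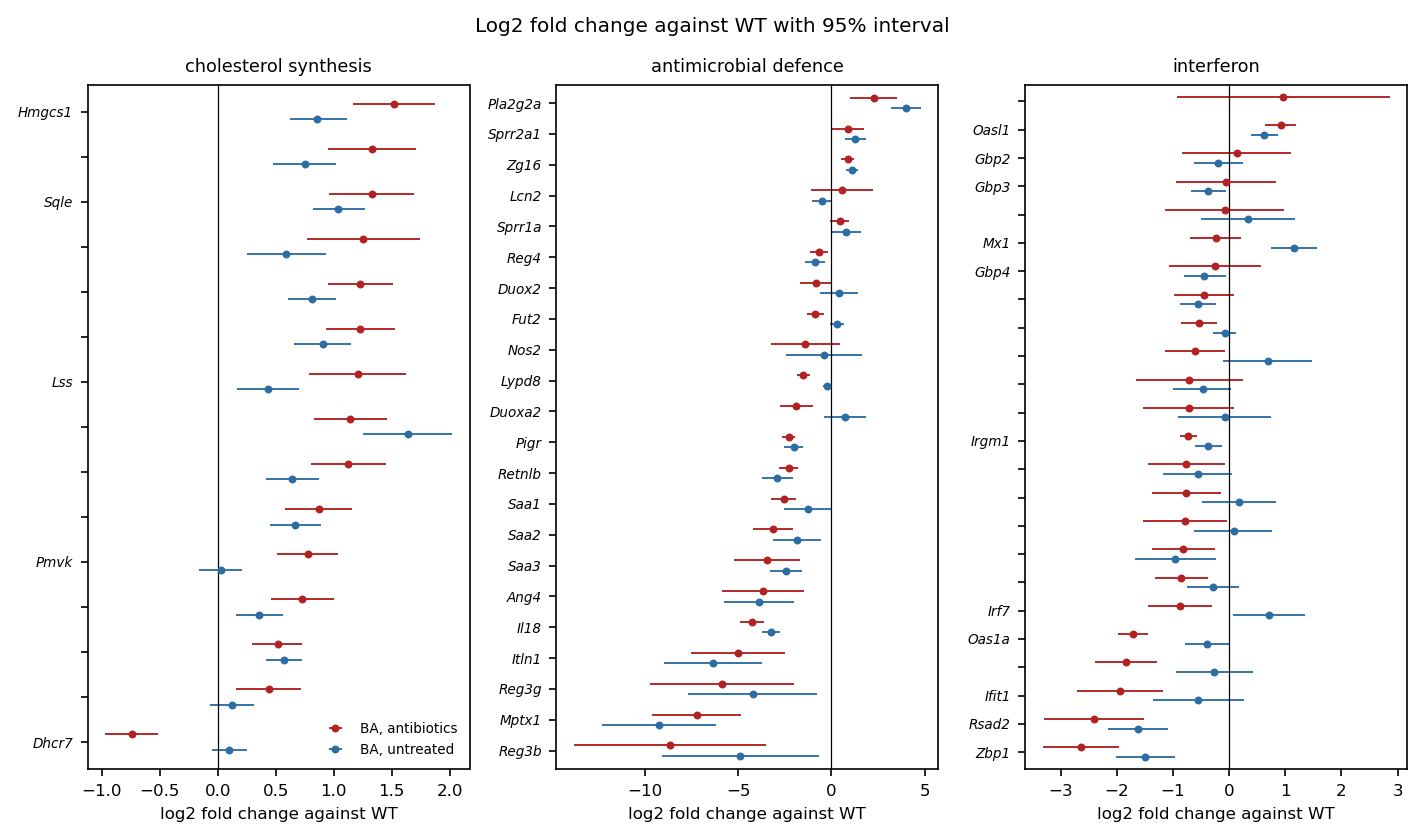
Log2 fold change from WT with 95% confidence interval for tested genes of the cholesterol synthesis, antimicrobial defence and interferon lists (labels for genes described in the text, and some members not drawn), in antibiotic-treated BA and in untreated BA, both against the same 4 WT libraries. Cholesterol synthesis genes lie further above WT under antibiotics (medians 1.14 and 0.67), Dhcr7 lies below WT under antibiotics (-0.74) and not without (0.10), and interferon genes such as Oas1a and Irf7 lie lower under antibiotics than without.

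Glycolytic genes were higher. Of 16, 11 were higher and 2 lower (median 0.73), beside 21.8% and 17.8% of all genes. In untreated BA 11 were higher and 3 lower (median 0.76), beside 25.8% and 29.3%. Slc2a1, the glucose transporter GLUT1, was at 160, 220, 214 and 191 CPM in WT and at 703, 893, 624, 602 and 772 CPM in treated BA (1.89, adjusted p = 4.69e-06), and Slc16a3, the lactate exporter MCT4, rose by 2.93. Ldha rose by 0.86, Pgk1 by 1.40 and Eno1 by 1.42. Pfkm fell by 0.94 and Pfkl by 0.32. Gpi1 was within 1.5-fold of WT (-0.22), and Hk2 was at 127 to 170 CPM in treated BA against 128 to 149 CPM in WT replicates 2 to 4 and 294 CPM in WT replicate 1.

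DNA replication and ribosome biogenesis genes were slightly higher than in WT. Of 24 cell cycle genes, 16 were higher and none lower (median 0.49), beside 21.8% and 17.8% of all genes. In untreated BA 7 were higher, beside 25.8%. Without WT replicate 3, 10 of the 24 were called against WT. Under antibiotics 6 were higher than in untreated BA, beside 4.53% of all genes, and 20 were higher once treated BA replicate 3 was left out, beside 6.09%. The helicase subunits Mcm3 and Mcm4 rose by 0.83 and 0.78 and the nucleotide reductase subunit Rrm2 by 0.90, while the mitotic genes Mki67 (0.14) and Ccnb2 (0.17) were within 1.5-fold of WT. Mcm3 was at 24.3 to 35 CPM in WT, 42.2 to 68.8 CPM in treated BA and 36.9 to 45.8 CPM in untreated BA. Of 18 MYC target and ribosome biogenesis genes, 17 were higher in treated BA (median 0.51) and 12 in untreated BA, beside 21.8% and 25.8% of all genes. The largest of these changes was in Odc1, the first enzyme of polyamine synthesis and a target of MYC, at 85.9, 95, 68.3 and 76.7 CPM in WT and 347, 305, 232, 311 and 297 CPM in treated BA (1.89, adjusted p = 2.22e-06), which was also above untreated BA (184 to 227 CPM, 0.51, adjusted p = 0.00516). Cdkn1a, the cell cycle inhibitor p21, was 1.07 above WT and 0.53 above untreated BA (adjusted p = 0.00769).

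Crypt stem cell genes were divided. Of 17, 5 were higher and 6 lower than in WT, beside 21.8% and 17.8% of all genes. In untreated BA 5 were higher and 9 lower, beside 25.8% and 29.3%. Lgr5, the Wnt-dependent stem cell receptor, was at 8.31 to 9.39 CPM in WT and 2.14 to 6.77 CPM in treated BA (fell by 0.96, adjusted p = 0.0148), and Rnf43 fell by 0.87. Prom1, a membrane protein of crypt cells, was 0.39 above WT and 1.16 above WT in untreated BA, and differed between the BA groups (-0.78, adjusted p = 0.000709). Sox9, Cd44, Ephb3, Lrig1, Cdca7 and Hopx lay within 1.5-fold of WT. Of 12 Wnt feedback genes, 4 were lower and 1 higher in treated BA, beside 17.8% and 21.8% of all genes. In untreated BA 8 of 13 were lower, beside 29.3%. Axin2, the feedback inhibitor most often used to read Wnt activity, fell by 0.52 (10.4 to 14.5 against 17.4 to 19.8 CPM), Tcf7 fell by 0.99, and Sp5 rose by 1.36.

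Genes of antimicrobial defence were lower in treated BA colon. Of 24, 22 were tested, 15 were lower and 2 higher (median -2.09), beside 17.8% and 21.8% of all genes. In untreated BA 11 were lower and 3 higher, beside 29.3% and 25.8%. Their summed level was 6395 to 9027 CPM in treated BA, 11472 to 14253 CPM in untreated BA and 14556 to 18812 CPM in WT. Lypd8, a secreted protein that keeps flagellated bacteria from the colonic surface, was at 8241, 7635, 8728 and 7337 CPM in WT, at 3312, 3171, 2867, 1927 and 2613 CPM in treated BA and at 5856 to 8461 CPM in untreated BA. Treated BA libraries lay below all others, with a change of -1.51 from WT (SE 0.15, adjusted p = 3.68e-05) and -1.30 from untreated BA (adjusted p = 0.000698), and untreated BA was not called against WT (-0.22, adjusted p = 0.111). Fut2, a fucosyltransferase of the epithelial surface, fell by 0.86 from WT and by 1.16 from untreated BA (adjusted p = 0.00324). Duoxa2, the maturation factor of the DUOX2 oxidase, fell by 1.89 from WT and by 2.65 from untreated BA (adjusted p = 0.00381), with libraries that overlapped WT, and Duox2 was not called against WT (-0.82, adjusted p = 0.119) and was lower than in untreated BA (-1.23, adjusted p = 0.0385).

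Several other defence genes were lower in treated BA colon than in WT. Pigr, the receptor that carries IgA across the epithelium, was at 4735, 2757, 3820 and 3549 CPM in WT and at 870, 791, 597, 812 and 685 CPM in treated BA (fell by 2.29, adjusted p = 2.8e-06), against -2.02 in untreated BA. Il18, an epithelial cytokine, was at 26.6 to 43.6 CPM in WT and 1.23 to 3.52 CPM in treated BA (fell by 4.26), and Retnlb, a goblet cell protein that binds bacteria, fell by 2.29. Saa1, Saa2 and Saa3, the serum amyloid A genes, fell by 2.55, 3.13 and 3.44, the last at 13.1 CPM in treated BA replicate 3 and at most 1.34 CPM in the others. Reg4 fell by 0.68 and Ang4 by 3.66, the latter ranging from 8.37 to 790 CPM within WT. Reg3b and Reg3g, bactericidal lectins, passed the test (-8.67 and -5.87), but WT replicate 1 held 1744 and 523 CPM while the other WT libraries held 0.643 to 6.09 and 1.29 to 4.91 CPM, and treated BA held 0.123 to 2.81 and 1.36 to 5.09 CPM. Without WT replicate 1 neither was called (-1.38 and -0.20, adjusted p = 0.229 and 0.803). Itln1 and Mptx1 were near the limit of a count of 3 in treated BA (at most 0.67 and 0.201 CPM) and varied in WT from 0.715 to 11.9 and from 0.715 to 23.2 CPM.

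Zg16, a goblet cell lectin that binds Gram-positive bacteria, and Pla2g2a, a bactericidal phospholipase, were higher than in WT (0.89 and 2.27), and Pla2g2a was lower than in untreated BA (-1.74, adjusted p = 0.00414). Sprr1a, Sprr2a1, Lcn2 and Nos2 were not called (0.44, 0.89, 0.57 and -1.39). Reg3a and Cxcl5 did not pass the filter, with Cxcl5 at 25.7 CPM in treated BA replicate 3 and at most 1.21 CPM in the other libraries of both groups.

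Many interferon-induced genes were lower in treated BA colon than in WT, and some were also lower than in untreated BA. Of 25, 11 were lower and 1 higher (median -0.72), beside 17.8% and 21.8% of all genes, and without treated BA replicate 3, 20 of 24 were lower and 1 higher (median -0.86), beside 24.4% and 23%. In untreated BA 7 of 24 were lower and 2 higher, beside 29.3% and 25.8% of all genes, so the share lower was near that of all genes. Between the BA groups 9 of 24 were lower and none was higher under antibiotics, beside 8.5% and 4.53% of all genes, and 13 were lower without treated BA replicate 3, beside 9.84%. Oas1a, a sensor of double-stranded RNA, was at 24.1, 26.9, 28.2 and 24.2 CPM in WT, at 8.09, 8.98, 5.88, 7.38 and 8.75 CPM in treated BA and at 11.3 to 26 CPM in untreated BA. Each treated library was below every library of both other groups, with a change of -1.71 from WT (SE 0.12, adjusted p = 3.48e-06) and -1.33 from untreated BA (adjusted p = 0.00172), while untreated BA was not called against WT (-0.39, adjusted p = 0.0868). Ifit1, which binds viral RNA, was at 10.5 to 35.5 CPM in WT and 2.85 to 6.47 CPM in treated BA (fell by 1.94, adjusted p = 0.00144), and was lower than in untreated BA (-1.39, adjusted p = 0.0182).

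Rsad2, the antiviral enzyme viperin, was at 7.41 to 10.5 CPM in WT and 0.863 to 3.62 CPM in treated BA (fell by 2.41), and Zbp1, a sensor of Z-form nucleic acid, fell by 2.64. Irgm1, a GTPase of cell-autonomous defence, was at 37.9, 40.9, 39.2 and 37.4 CPM in WT and 25.4, 21.8, 23.2, 22.2 and 23.4 CPM in treated BA (fell by 0.73, SE 0.07, adjusted p = 2.73e-05). These falls held in every treated BA library, replicate 3 included. Irf7, the transcription factor that amplifies the interferon response, was at 131, 308, 354 and 239 CPM in WT, 97.3 to 171 CPM in treated BA and 293 to 688 CPM in untreated BA, with a change of -0.88 from WT (adjusted p = 0.0202, overlapping libraries) and -1.60 from untreated BA (adjusted p = 0.00139). Mx1, an antiviral GTPase, was not called against WT (-0.23, adjusted p = 0.395), was 1.16 above WT in untreated BA, and was lower in treated than in untreated BA (-1.40, adjusted p = 0.0008). Oasl1 was the exception, 0.92 above WT (adjusted p = 0.000307). In treated BA replicate 3, Gbp2, Gbp3 and Gbp4 were at 41.2, 17.4 and 10.4 CPM, above every other treated BA and WT library.

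Drug- and xenobiotic-metabolising enzymes were lower. Of 20 tested, 12 were lower and 3 higher (median -0.91), beside 17.8% and 21.8% of all genes. In untreated BA 12 were also lower and 3 higher (median -0.84), beside 29.3% and 25.8%. Cyp2c55, a cytochrome P450 abundant in mouse colon, was at 5114, 6236, 6127 and 5992 CPM in WT, at 205, 185, 135, 123 and 134 CPM in treated BA and at 585 to 2005 CPM in untreated BA. The groups did not overlap, and the change was -5.22 from WT (SE 0.17, adjusted p = 3.35e-08) and -3.08 from untreated BA (adjusted p = 0.000267). Ces1g, a carboxylesterase, fell by 4.38, Ugt2b5, a glucuronosyltransferase, by 2.63 and Ces2c by 2.64. Sult1a1, a sulphotransferase, fell by 3.65 and was higher than in untreated BA (1.24, adjusted p = 0.00843). The glutathione transferases Gsta1 and Gsta4 rose by 3.19 and 1.97. Nr1i2, the pregnane X receptor, Ahr, the aryl hydrocarbon receptor, and Gstm1 were within 1.5-fold of WT (-0.18, 0.03 and 0.09).

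Colonocyte transporters were lower, with 14 of 23 lower and 2 higher (median -0.70), beside 17.8% and 21.8% of all genes. In untreated BA 16 were lower and 2 higher, beside 29.3% and 25.8%. Slc26a3, the chloride-bicarbonate exchanger of the colonic surface, was at 967, 935, 1596 and 1006 CPM in WT, at 329, 215, 202, 306 and 240 CPM in treated BA and at 376 to 564 CPM in untreated BA, a change of -2.11 from WT (adjusted p = 2.09e-05) and -0.84 from untreated BA (adjusted p = 0.00395). No treated library reached the lowest of either other group. Slc9a3, the sodium-proton exchanger NHE3, fell by 3.64 from WT (65.9 to 296 CPM) and by 1.71 from untreated BA. Slc16a1, the butyrate and lactate transporter MCT1, fell by 1.32 from WT and was lower than in untreated BA (-0.61, adjusted p = 0.00105), while Slc5a8, another butyrate transporter, fell by 1.27. Clca4a rose by 2.12 and Scnn1g, a subunit of the epithelial sodium channel, by 1.35 with overlapping libraries (0.408 to 1.52 against 1.24 to 3.28 CPM). Car1 and Slc9a2 stayed within 1.5-fold of WT (-0.15 and 0.26), and Trpv6 did not pass the filter.

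Ketogenesis and fatty acid oxidation genes were lower in 12 of 21 cases, with none higher (median -0.39), beside 17.8% and 21.8% of all genes. In untreated BA 12 were lower and 2 higher (median -0.30), beside 29.3% and 25.8%. Ppara, the transcription factor that induces many of these genes, was at 20.6, 17.8, 22.5 and 23.5 CPM in WT and 4.98, 5.29, 4.31, 7.1 and 5.12 CPM in treated BA (fell by 1.96, SE 0.15, adjusted p = 5.08e-06), with no overlap. Cpt1a, which admits fatty acids into mitochondria, fell by 0.61 and was lower than in untreated BA (-0.51, adjusted p = 0.000708), where it was not called against WT (-0.11). Ehhadh, an enzyme of peroxisomal fatty acid oxidation, fell by 1.11 from WT and by 0.63 from untreated BA (adjusted p = 0.00419). Cpt2, Acadm, Acadl and Hadha were among 7 members within 1.5-fold of WT.

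T cell, B cell and plasma cell genes were lower in treated BA colon. Of 10 T cell genes tested, 7 were lower and none higher (median -0.86), beside 17.8% and 21.8% of all genes, and 4 were called without WT replicate 2. Among them were Cd8a at 1.81 to 4.08 CPM in WT and 0.224 to 0.788 CPM in treated BA (fell by 2.18) and Gzma (fell by 2.42). Their summed level was 13.5 to 17.7 CPM in treated BA, 14.8 to 21.9 CPM in untreated BA and 19.9 to 34.6 CPM in WT. Of 11 B and plasma cell genes tested, 7 were lower and 1 higher (median -1.07). With treated BA replicate 3 left out, 8 of 10 T cell genes were lower (median -1.12), beside 24.4% of all genes. In that fit 8 of 10 B and plasma cell genes were lower and 1 higher (median -1.19). Igha, the heavy chain of IgA, was at 2518, 2170, 3502 and 2716 CPM in WT and 501, 1309, 393, 1035 and 1322 CPM in treated BA (fell by 1.57, adjusted p = 0.00465), and Jchain, which joins IgA subunits, fell by 1.70. The member that rose, Sdc1 (1.58), is a plasma cell marker that epithelium also expresses. Of 14 macrophage and complement genes none was called with all libraries by edgeR's quasi-likelihood test (median -0.14; 1 at an unadjusted p under 0.05, 1 by DESeq2, 1 by voom and 0 by the likelihood ratio test), 1 was called without WT replicate 1, and 11 were lower without treated BA replicate 3 (median -0.65), beside 24.4% of all genes in that fit, for example Csf1r (fell by 0.75) and Lyz2 (fell by 0.96). Of 14 inflammatory genes tested out of 26, Il1rn, Lif and Il11 were higher and Ccl20 was lower (2.94 to 4.9 CPM in WT, at most 0.067 CPM in treated BA), and the cytokine gene Il1b was not called (0.50, adjusted p = 0.64), with 8.98 CPM in treated BA replicate 3. The median of these 14 genes was 0.64 with all libraries. It was -0.10 without treated BA replicate 3, with 3 higher and 2 lower, beside 23% and 24.4% of all genes.

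Of 10 MHC class II genes, none was called in either direction by edgeR's quasi-likelihood test (median 0.01). At an unadjusted p under 0.05, which 48.6% of all genes reached, the count was 1, as it was by DESeq2, the likelihood ratio test and voom. Without treated BA replicate 3, 1 was lower (H2-Ob, fell by 1.14), beside 24.4% of all genes. Of the 10, 5 had intervals within 1.5-fold of WT, beside 37.3% of all genes. H2-Aa, a class II α chain, was at 162, 120, 130 and 119 CPM in WT and at 108, 115, 212, 90.6 and 120 CPM in treated BA (-0.01, 95% interval within 1.5-fold). H2-Ab1, H2-Eb1, H2-DMa and the invariant chain Cd74 had changes of 0.04, 0.03, -0.08 and 0.03. The highest treated BA value was replicate 3 in each of these genes, and without it the changes were -0.20 for H2-Ab1 and -0.30 for H2-Aa, neither called.

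Oxidative phosphorylation was the list with the largest share of members at WT level among lists of at least 10 tested genes. Of 28 nuclear subunits, 23 had intervals within 1.5-fold and all 28 within 2-fold, beside 37.3% and 66% of all genes. Even so, 9 were lower and 1 was higher (median -0.19), beside 17.8% and 21.8% of all genes, and in untreated BA 21 were lower, beside 29.3%. These 10 calls became 5 without treated BA replicate 4, treated BA replicate 5 or WT replicate 2, and 6 without WT replicate 3. The members outside 1.5-fold were Cox4i1, Cox5b, Sdhb and Uqcrfs1, all lower, and Ndufa4, which was higher. Without treated BA replicate 3, 26 were within 1.5-fold and 6 were lower, beside 37.2% and 24.4% of all genes.

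Of 14 transcription factors of intestinal identity tested, 7 lay within 1.5-fold of WT and 12 within 2-fold, beside 37.3% and 66% of all genes. Cdx1 was at 262, 284, 229 and 233 CPM in WT and 262, 289, 191, 260 and 251 CPM in treated BA (0.00), and Cdx2, the master factor of hindgut identity, was at 310 to 417 CPM in WT and 243 to 347 CPM in treated BA (-0.19). Klf4, Klf5, Elf3 and Foxa1 were also within 1.5-fold, with changes of -0.06, 0.26, -0.24 and 0.18. Hnf4a and Gata6 rose by 0.73 and 0.46. Vdr, the vitamin D receptor, and Isx fell by 0.47 and 0.99, and Isx was lower than in untreated BA (-0.88, adjusted p = 0.00274), where it was not called against WT (-0.13).

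Of 17 TGF-β pathway genes, 4 were higher and 1 lower (median 0.21), beside 21.8% and 17.8% of all genes. In untreated BA 7 were higher and 5 lower, beside 25.8% and 29.3%. Without WT replicate 2 or WT replicate 3, 3 of the 17 were called in treated BA. Intervals lay within 1.5-fold for 6 and within 2-fold for 12, beside 37.3% and 66% of all genes, so the shares higher and within 1.5-fold were near those of all genes. Tgfbr1, Tgfbr2, Smad2, Smad4, Skil and Tgfbi were the 6 at WT level. Smad3, a receptor-activated SMAD, was at 48 to 59.4 CPM in WT and 82.4 to 98.8 CPM in treated BA (0.82, adjusted p = 3.68e-05), and the corepressor Ski rose by 0.69. Of 14 BMP genes, 4 were higher and 1 lower. Id1, a BMP target, rose by 1.11, Id4 by 0.76 and Bmp2 by 0.75, the last with overlapping libraries. Id3 was within 1.5-fold of WT (-0.13) and above untreated BA (0.55, adjusted p = 0.0276), and Id2 was not called against WT (0.44, adjusted p = 0.0516) and was above untreated BA (0.99, adjusted p = 0.00158). Of 22 YAP targets, 5 were higher and 1 lower (median 0.63), beside 21.8% and 17.8% of all genes, and without treated BA replicate 3, 5 were higher and 3 lower (median 0.06), beside 23% and 24.4%. The YAP count depended on the test: 6 were called by edgeR's quasi-likelihood test, 11 by DESeq2, 9 by the likelihood ratio test and 7 by voom. At an unadjusted p under 0.05, which 48.6% of all genes reached, the count was 11. Tead4, a YAP partner, rose by 3.16, Msln by 2.99 and Nt5e by 2.26, while Ccn2 was not called (0.69, adjusted p = 0.0606). The Msln change includes treated BA replicate 3, which at 27.1 CPM was far above the other treated BA libraries.

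**Figure D3:**
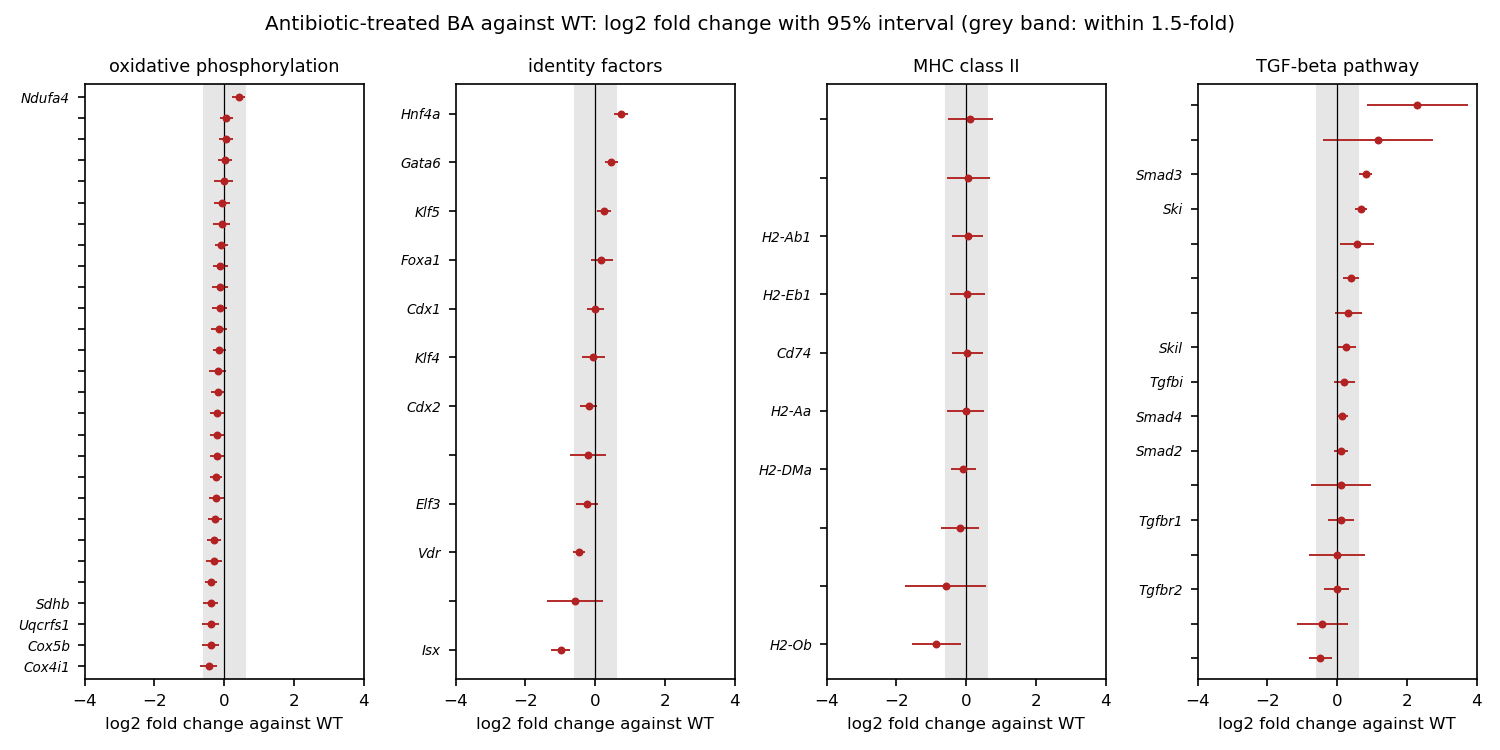
Log2 fold change of antibiotic-treated BA from WT with 95% confidence interval for tested genes of the oxidative phosphorylation, identity factor, MHC class II and TGF-β pathway lists (labels for genes described in the text, and some members not drawn), with a grey band for 1.5-fold either way. Intervals of 23 of 28 respiratory genes lie inside the band, and those of Smad3, Hnf4a and Isx extend beyond it.

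Across the 44 lists, which hold 691 genes, 615 were tested and 123 (20%) had intervals within 1.5-fold of WT, a smaller share than the 37.3% of all genes. Of these 123, 13 (10.6%) were called between the BA groups, beside 13% of all genes, 10 lower and 3 higher under antibiotics, and 9 of the 13 were also called between untreated BA and WT. Skil, a repressor of SMADs, was at 71.9, 82.9, 89.1 and 81.4 CPM in WT, at 114, 114, 86.3, 76.4 and 93.4 CPM in treated BA and at 135 to 161 CPM in untreated BA (-0.58, adjusted p = 0.00462). Its treated BA libraries overlapped WT and lay below every untreated BA library. Sox9, a crypt transcription factor, had a change of -0.58 between the BA groups (adjusted p = 0.0138), Gpi1 of -0.47 (adjusted p = 0.00238) and Klf5 of -0.41 (adjusted p = 0.0175). Spred2, Ly6e, Mgam, Nr1i2 and Cdhr5 had changes between -0.30 and -0.39. Id3 and Sct, the hormone secretin (0.60, adjusted p = 0.0236), were 2 of the 3 that were higher.

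Some genes, chosen after their values were seen, were changed from WT under antibiotics, differed between the BA groups and were not called between untreated BA and WT. The number of all genes with this pattern is not given here, and a gene not called is not thereby at WT level. Muc4, a membrane mucin, was at 199, 111, 103 and 85.6 CPM in WT, at 55.3, 59.4, 40.9, 45.2 and 40.8 CPM in treated BA and at 88.4 to 163 CPM in untreated BA, a change of -1.35 from WT (adjusted p = 0.000997) and -1.31 from untreated BA (adjusted p = 0.00147). Its treated libraries lay below all others. Muc13 fell by 0.82 from WT and by 0.63 from untreated BA, and Galnt12, which starts mucin-type glycans, fell by 0.50 and by 0.40. Muc4, Muc13, Lypd8, Isx, Pmvk, Dhcr7, Oas1a, Fut2 and Cpt1a shared this pattern. Mmp13, a collagenase, had the reverse: it was not called in treated BA (-0.49, adjusted p = 0.0674), was 1.68 above WT in untreated BA, and was lower in treated than in untreated BA (-2.19, adjusted p = 0.00147). Krt23 and Mx1, described above, were also not called in treated BA, above WT in untreated BA and lower in treated than in untreated BA.

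Genes of secretory and absorptive lineages moved in both directions, beside 21.8% higher and 17.8% lower of all genes. Of 14 goblet cell genes, 4 were lower and 1 higher, with Tff3, Atoh1, Guca2a and Capn9 within 1.5-fold of WT, Muc2 not called (-0.35, adjusted p = 0.264), Klk1 lower (fell by 1.15) and Sytl2 higher (0.83). Their summed level was 7477 to 11516 CPM in treated BA and 10347 to 16303 CPM in WT. Of 8 gastric and mucin genes tested out of 19, 2 were higher and 4 lower. Vsig1, a junction protein of stomach epithelium, rose by 3.22 (8.45 to 23 against 0.868 to 1.94 CPM) and was lower than in untreated BA (-0.93, adjusted p = 0.0245), and Muc16 fell by 4.19. Of 10 enteroendocrine genes, Pyy and Tph1 rose by 1.07 and 0.82 and Nts and Chga fell by 0.84 and 0.68. Of 10 tuft cell genes 3 were lower, and 1 was called without treated BA replicate 5, WT replicate 2, WT replicate 3 or WT replicate 4. Without treated BA replicate 3, 6 were lower, beside 24.4% of all genes, for example Sh2d6 (fell by 0.78) and Avil (fell by 0.41). Of 17 digestion genes, 5 were higher and 5 lower. Slc15a1, the peptide transporter PEPT1, rose by 4.72 (55.1 to 93.2 against 1.07 to 4.23 CPM), Fabp2, a fatty acid-binding protein, by 1.72 and also above untreated BA (0.77, adjusted p = 0.00362), and Apob by 1.91, while Cubn fell by 3.32 and Mep1a by 0.79.

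Clock, prostaglandin, protease and senescence genes gave calls in shares to be read beside the 21.8% higher and 17.8% lower of all genes. These shares of all genes were 23% and 24.4% without treated BA replicate 3. Of 16 clock genes, 6 were higher and 2 lower, led by Ciart (1.76) and Tef (1.27), with Clock, Per1, Cry1 and Cry2 within 1.5-fold of WT. These 8 clock gene calls became 3 without WT replicate 3, 4 without WT replicate 2, treated BA replicate 2 or treated BA replicate 4, and 5 without treated BA replicate 5. The hour of sampling is not among the labels used here. Of 13 prostaglandin genes tested, 2 were higher and 2 lower (2 and 4 without treated BA replicate 3), and 2 were called without WT replicate 4. Ptger4, a receptor for prostaglandin E2, was at 29.7 to 36.9 CPM in WT and 49.7 to 65.4 CPM in treated BA (0.82, adjusted p = 8.91e-05) and was above untreated BA (0.54, adjusted p = 0.00313), while Ptgs2 and Pla2g4a lay within 1.5-fold of WT. Of 15 protease genes, 4 were higher and none lower with all libraries (4 and 3 without treated BA replicate 3), and 2 were called without WT replicate 2 or WT replicate 3, with Plaur, the urokinase receptor, at 2.72 and Mmp10 at 2.98. Of 15 senescence and p53 genes tested, 4 were higher and 3 lower, with Mdm2 0.48 higher and Glb1 and Sesn1 lower (fell by 1.01 and 1.00).

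Stromal genes depended on the libraries described at the start. Counts without treated BA replicate 3 stand beside 23% higher, 24.4% lower and 37.2% within 1.5-fold of all genes in that fit. Of 17 matrix and fibroblast genes none was called with all libraries by edgeR's quasi-likelihood test (median 0.42; 2 at an unadjusted p under 0.05, 1 by DESeq2, 1 by the likelihood ratio test and 0 by voom), 2 were called without treated BA replicate 1, and without treated BA replicate 3, 6 were lower and 10 lay within 1.5-fold (median -0.09). Col1a1, a chain of collagen I, was at 173, 167, 179 and 179 CPM in WT and at 150, 193, 1455, 205 and 204 CPM in treated BA. Treated BA replicate 3 was the high value, and the remaining 4 spanned the WT range, with a change of 0.10 (adjusted p = 0.435) once it was left out. In untreated BA 11 of the 17 were lower, beside 29.3% of all genes. Of 12 smooth muscle genes none was called by edgeR's quasi-likelihood test (median -0.40; 1 at an unadjusted p under 0.05, 1 by DESeq2, 1 by the likelihood ratio test and 0 by voom), 1 was called without treated BA replicate 1 or treated BA replicate 2, and 10 were lower in untreated BA (median -1.00). Acta2, smooth muscle actin, was at 1174 to 1386 CPM in WT and at 363, 1110, 731, 1060 and 840 CPM in treated BA (-0.66, adjusted p = 0.0705). Of 10 endothelial genes, Vwf was lower (fell by 1.12), 5 were lower without treated BA replicate 3, 2 were called without treated BA replicate 4, and none was called without WT replicate 2, WT replicate 3 or WT replicate 4. Of 10 nerve and glia genes 3 were lower (median -1.06), Sox10 among them (fell by 1.12), and all 10 were lower in untreated BA, beside 17.8% and 29.3% of all genes. Of these 10, 8 were called against WT without treated BA replicate 5, 5 without WT replicate 4 and 1 without WT replicate 2. Of 10 fat cell genes 6 were tested and none was called by edgeR's quasi-likelihood test (median 1.57), at an unadjusted p under 0.05 or by DESeq2, voom or the likelihood ratio test, while without treated BA replicate 3, 5 were lower (median -1.46), for example Lpl (fell by 1.71), against WT values that include replicate 4. The part of tissue make-up in the changes of other genes was not tested.

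**Figure D4:**
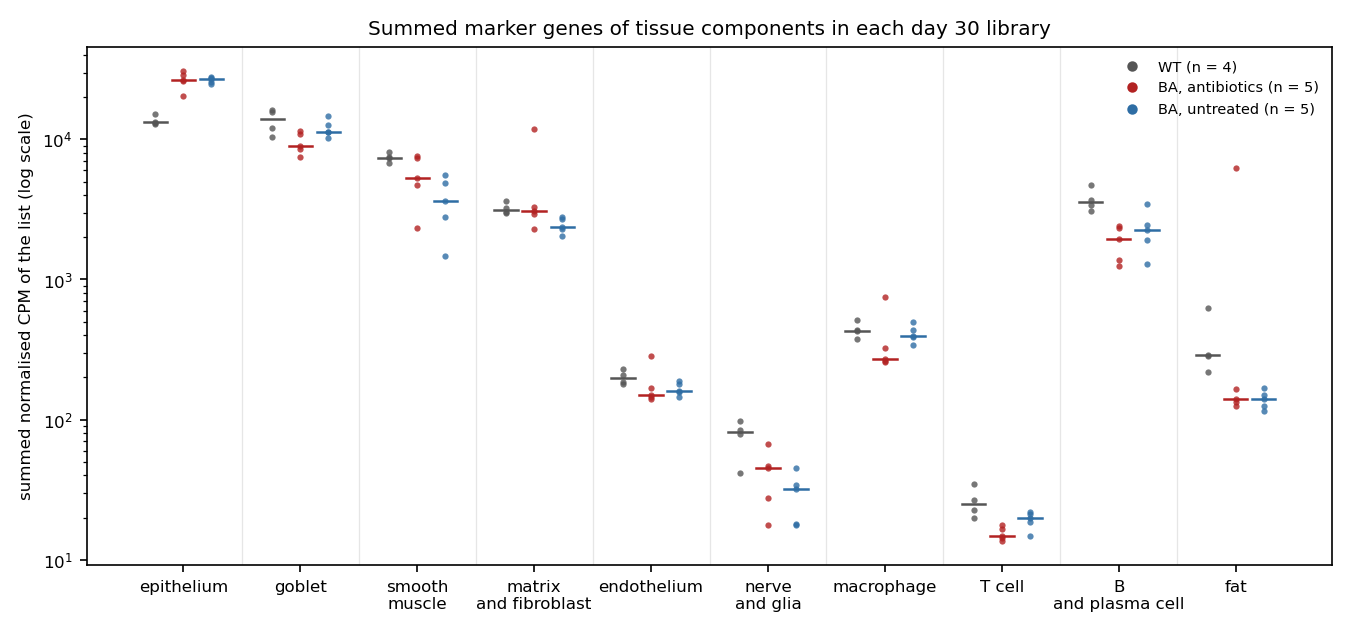
Summed normalised CPM of marker lists for tissue components in each WT, antibiotic-treated BA and untreated BA library, 1 point per library, on log axes. Treated BA replicate 3 is highest for fat (6231 CPM) and matrix genes (11886 CPM), and all 5 treated BA libraries lie above WT for epithelial genes.

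**Figure D5:**
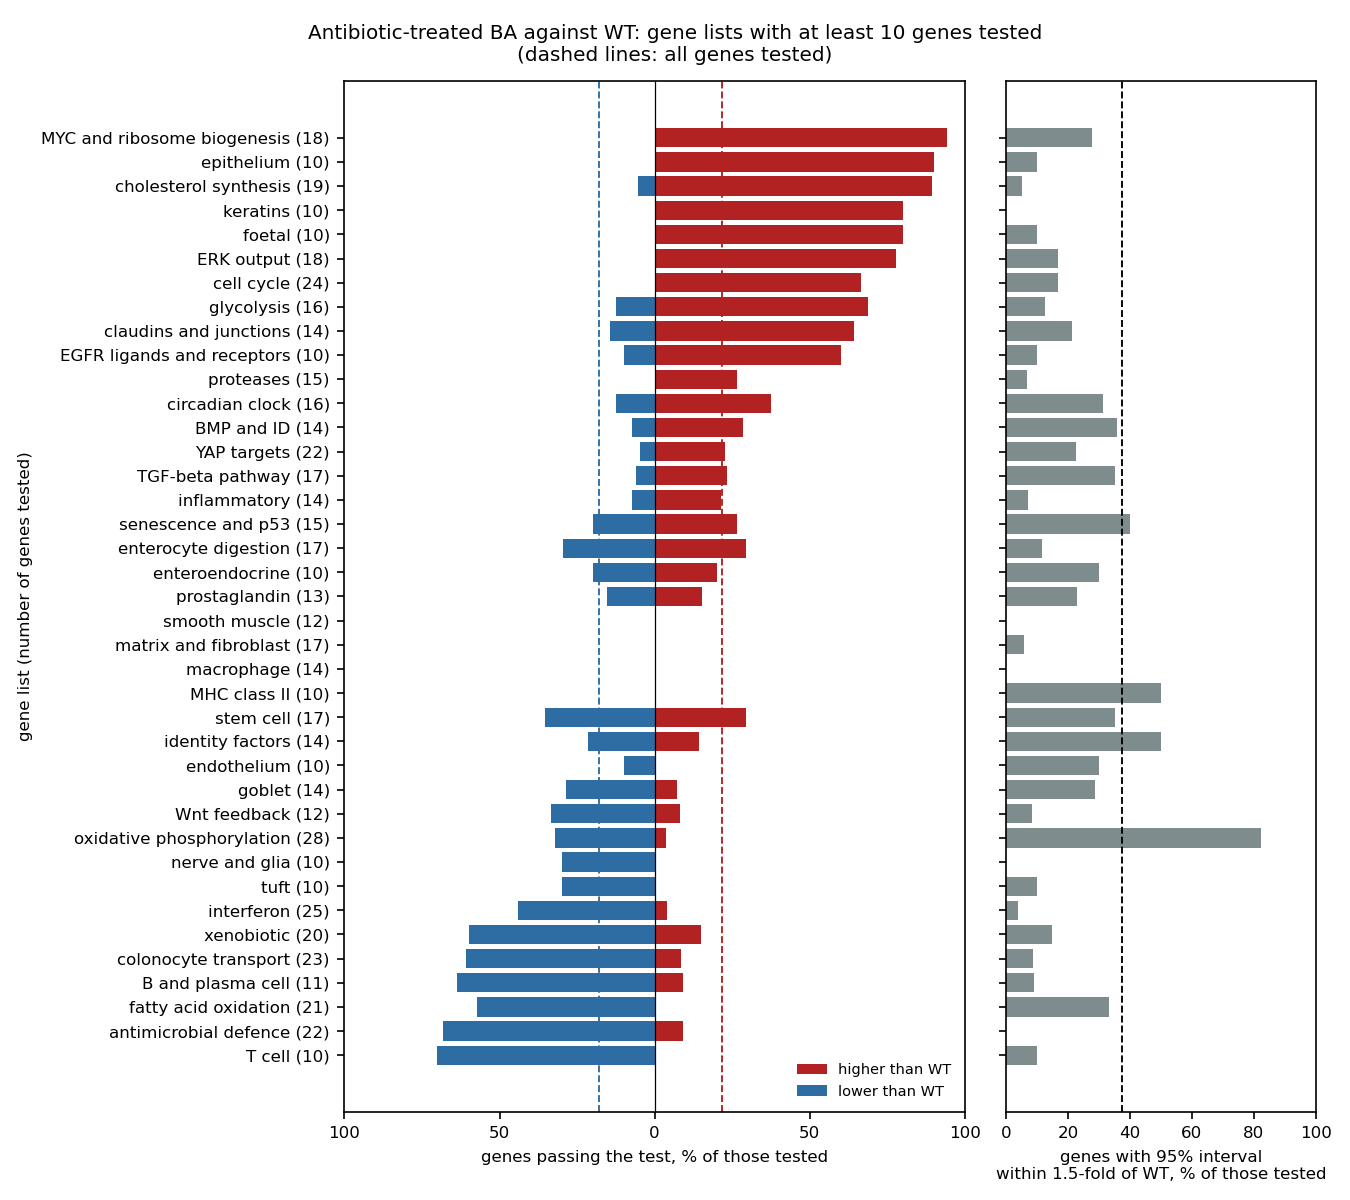
Share of tested genes called higher or lower in antibiotic-treated BA than in WT for each list with at least 10 genes tested, and share with a 95% interval within 1.5-fold of WT. Dashed lines mark the shares over all genes tested (21.8% higher, 17.8% lower and 37.3% within 1.5-fold).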

How the data were processed

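RNA from proximal colon was sequenced on a NextSeq from TruSeq RNA v2 libraries as paired reads of 36 bases. The authors checked reads with FastQC 0.11.8, trimmed them with Trim Galore 0.6.4, aligned them to GRCm38 with HISAT2 2.1.0 and counted them on genes with featureCounts 1.6.4. The values they deposited are raw counts per gene, not normalised, for 55421 identifiers, of which 55154 were paired with a symbol, and no column of another series was found. The strand setting of the counting is not given in the sources used here.

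Groups were taken from the labels. Each comparison was fitted alone with edgeR 4.0.16 (R 4.3.3; low counts removed by filterByExpr, TMM scaling, quasi-likelihood test, Benjamini-Hochberg adjustment over all genes tested). Alternatives were voom from limma 3.58.1, DESeq2 1.42.0, edgeR's likelihood ratio test, RLE scaling, no filter, all 5 day-30 groups in 1 fit, the replicate number as a block, and leaving out each library. On simulated counts for treated BA against WT (17569 genes, 200 changed by 1 on the log2 scale), edgeR's quasi-likelihood test recovered 67% of changed genes and 5.634% of its calls were false. False calls were 20.92% by DESeq2, 17.8% by the likelihood ratio test and 5.674% by voom. The simulation changed far fewer genes than were called in the data and drew genes independently, without shared tissue differences, so these rates may not carry over. Figures were drawn with matplotlib 3.10.9.

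Named genes were Tgfbr1 and Braf, all foetal, ERK and antimicrobial genes, from each other list the 2 highest and 2 lowest, up to 5 further members and those within 1.5-fold of WT, and the 12 highest and 12 lowest of all genes with non-overlapping groups and an average log2 CPM of at least 3. Not every gene that the rule allows was named, and some are not reported here. The members and lists were chosen with earlier results of these data known, and the fat list was added after library values had been seen. The limit of 3 counts covers counting error alone.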

Additional observations from a re-analysis of the deposited data

Results flagged for a closer look

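In 548 sets of 4 WT or 5 treated BA values behind the named genes and list sums, 62 had a highest or lowest library far from the rest by Dixon's test, which chance alone gives in about 1 set in 20. The sets are not independent, since they come from the same 9 libraries. Of the 62, 25 fell on treated BA replicate 3, 11 on WT replicate 1, 2 on WT replicate 4 and 24 on other libraries.

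In treated BA replicate 3 the list sums that stood out were those of fat genes (6231 CPM), matrix and fibroblast genes (11886 CPM) and macrophage genes (754 CPM). The stromal and fat genes far above the other treated libraries were Col1a1 (1455 CPM), Adipoq (203 CPM), Lpl (501 CPM) and Msln (27.1 CPM). Myeloid and inflammatory genes that stood out high there were Csf1r (79.4 CPM), Lyz2 (258 CPM), Il1b (8.98 CPM), Cxcl5 (25.7 CPM), S100a8 (7.09 CPM), S100a9 (11 CPM), Saa3 (13.1 CPM), Lcn2 (8.03 CPM) and Il18 (3.52 CPM). The MHC class II genes H2-Aa (212 CPM), H2-Ab1 (193 CPM), H2-Eb1 (163 CPM) and H2-DMa (18.1 CPM), the interferon-induced Gbp3 (17.4 CPM) and Gbp4 (10.4 CPM), and Hopx (15.7 CPM) were also high. Anxa1 (566 CPM) and Foxa1 (46.2 CPM) were low in that library.

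WT replicate 1 stood out for Reg3b (1744 CPM), Reg3g (523 CPM), Reg3a (1.43 CPM), Nos2 (15.2 CPM), Hk2 (294 CPM), Lss (63 CPM), Syt8 (1.79 CPM), Ephb3 (23.7 CPM), Pyy (18.4 CPM), Ehhadh (75 CPM) and Nts (29.8 CPM). WT replicate 4 stood out for Adipoq (16.3 CPM) and Mcm4 (24.4 CPM). WT replicate 2 was the separate library for Krt19 (2486 CPM), Gapdh (141 CPM), Trim29 (2.4 CPM), Ahr (17.6 CPM), Cox5b (214 CPM), Uqcrfs1 (458 CPM) and Elf3 (559 CPM), and WT replicate 3 for Slc26a3 (1596 CPM), Trpv6 (5.1 CPM) and Ccnb2 (25 CPM).

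Among treated BA libraries, replicate 4 was separate for Ly6a (392 CPM), Arhgap40 (9.79 CPM), Slc37a2 (27.9 CPM), Mx1 (7.05 CPM), Vsig1 (23 CPM), Cubn (1.06 CPM) and Id2 (17.1 CPM). Replicate 2 was separate for Duoxa2 (20.2 CPM), Reg3g (5.09 CPM), Pla2g2a (2.61 CPM), Itln1 (0.67 CPM), S100g (0.201 CPM), Ccn2 (52.7 CPM) and Cpt2 (156 CPM).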

How the results depend on the processing

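The count of genes called between treated BA and WT (6966) ranged from 5244 with the replicate number as a block to 7267 by DESeq2, and from 5606 to 8274 with single libraries left out. Between untreated BA and WT (9634) the range was 7965 to 9938, and 8796 to 9425 with single libraries left out. The count between the BA groups (2172) was less stable: it was 2971 by DESeq2, 1074 with all 5 day-30 groups in 1 fit, 1284 with the replicate block and 1300 to 2683 with single libraries left out, the lowest without treated BA replicate 5 and the highest without treated BA replicate 3, and the cause was not tested. Genes within 1.5-fold of WT (6552) numbered 11600 with a 2-fold bound, which is wider by construction, and 5943 to 6488 with single libraries left out. Of the calls between treated BA and WT, 55% were higher. That share was 54.4% with RLE scaling and 50.3% with the replicate block, and lower calls were the majority with no filter (48.4% higher), with all 5 groups in 1 fit (48.7%), without treated BA replicate 3 (48.5%) and without treated BA replicate 5 (49.9%). With all 5 groups in 1 fit, calls against WT went from 8 to 4 among clock genes, from 10 to 5 in oxidative phosphorylation, from 3 to 1 among tuft cell genes, from 4 to 7 among inflammatory genes and from 3 to 5 among nerve and glia genes.

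Replicate numbers did not pair the samples: correlations of same-numbered libraries ran from -0.16 to 0.17 between treated BA and WT, 0.05 to 0.21 between untreated BA and WT, and -0.46 to 0.16 between the BA groups, and not every library correlated best with its own number. Treated BA replicate 5 has no WT partner and drops out of the block.

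Calls of named genes against WT that were lost when some single library was left out were those of Reg3b, Reg3g, Irf7, Erbb2, Pfkl, Cd44, Reg4, Scnn1g, Lif, Cox5b, Tph1, Chga, Avil, Clock, Vwf and Sox10. Of the calls between the BA groups described above, those of Slc30a10, Ly6c1, Anxa5, Anxa1, Ly6e, Dusp6, Myc, Spred2, Duox2, Nr1i2, Id3, Mgam, Cdhr5, Sct and Vsig1 were lost in the same way. Changes that reversed were those of Lpl in treated BA against WT (range -1.71 to 0.91, the lowest without treated BA replicate 3), Lyz2 between the BA groups (-0.71 to 0.19, the lowest without treated BA replicate 3), and Reg3b and Reg3g in untreated BA against WT (-6.17 to 2.39 and -4.74 to 1.44, the highest without WT replicate 1). Changes of genes near 3 counts per library, among them S100g, Itln1 and Mptx1, could not be sized at this depth.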

Other observations

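Day 30 proximal colon with Alk5 fl/fl and without the Braf allele (4 libraries) entered no comparison above other than the shared fit of all day-30 groups. The foetal list summed to 601 to 873 CPM in these libraries, against 481 to 566 CPM in WT and 1905 to 2447 CPM in antibiotic-treated BA. The ERK list summed to 366 to 492 CPM, against 401 to 416 CPM in WT and 876 to 1127 CPM in antibiotic-treated BA. These values were not tested.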
